A study of Rattus norvegicus with 5 samples.

Results

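The genes described here handle reactive oxygen, glutathione and reactive aldehydes in fat. They are 75 genes, out of 14217 with a single annotated symbol on the array, and they were taken by name. The names cover the glutathione transferases (Gst and Mgst genes), the glutathione peroxidases (Gpx), the peroxiredoxins (Prdx), the thioredoxins and their reductases and relatives (Txn), the superoxide dismutases (Sod) and the aldo-keto reductases of family 1 (Akr1). To these were added catalase (Cat), the glutathione-making enzymes Gclc, Gclm and Gss, the glutathione reductase Gsr, the detoxification enzymes Nqo1 and Hmox1, and Nfe2l2, the transcription factor also known as NRF2.

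The tissue was mesenteric fat lying around the pancreas (pMES) of male Wistar rats, which entered the study at 7 weeks of age. The lean group, 3 samples, ate a standard diet in which fat supplied 8% of the calories. The obese group, 2 samples, ate a cafeteria diet in which fat supplied 66%. Each diet lasted 30 days, the samples were independent per the labels, and each was read on its own Affymetrix array. Values are log2 expression levels, so a difference of 1 is a doubling, and every difference is given as cafeteria minus standard. With 2 arrays against 3, the number of arrays limits the precision of each comparison.

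Glutathione is a small thiol that peroxidases use to reduce hydrogen peroxide and lipid hydroperoxides, and that transferases attach to reactive compounds so that they can be exported. Thioredoxin and peroxiredoxins form a parallel thiol system. Nfe2l2 is held in the cytoplasm by Keap1 and, when oxidants or electrophiles release it, binds antioxidant response elements and raises the transcription of genes such as Nqo1, Gclm, Txnrd1 and several transferases. Aldo-keto reductases use NADPH to reduce aldehydes and ketones: the Akr1b branch reduces sugars and lipid aldehydes, and the Akr1c branch holds hydroxysteroid dehydrogenases, which set the balance of active and inactive steroids. Fat stores steroids and lipids that can be oxidised, so these enzymes are studied there in obesity.

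A level was tested only where the mean over the 5 arrays passed a filter on dim probe sets, at the 30th percentile or 4.28. Of the 75 genes, 66 passed and 9 did not. The 9 dim genes were Akr1b7, Akr1c1, Gpx2, Gpx6, Gsta3, Gsta3l1, Gstm3, Gstm6l and Gstp3, with means from 2.93 to 4.15, and for them only levels are given. Just inside the filter lay Akr1d1, at a mean of 4.59, and Akr1b10, at 4.78. Just outside lay Gpx2, at 4.15, and Gstp3, at 3.98.

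The array medians lay between 5.70 and 5.75, and the processing of the deposited values (RMA) makes them alike. Over the tested probe sets, pairwise correlations of the arrays ran from 0.976 to 0.989. Fat cell markers were high on every array: adiponectin (Adipoq) read 13.11 and 13.28 in cafeteria and 12.94, 13.09 and 13.08 in standard samples. The mean over 15 fat cell markers was 12.07 and 12.26 in cafeteria samples, above the 11.71 to 11.89 of standard samples. The mean over 15 endothelial markers was 8.12 and 8.58, below the 8.73 to 8.80 of standard samples, with all 15 differences below 0. The mean over 11 fibroblast markers was 11.21 to 11.31 against 11.01 to 11.08, and that over 6 red blood cell markers was 6.81 to 7.13 against 6.75 to 6.80. Pancreatic acinar transcripts were high on the array of standard replicate 1, with a mean of 8.94 over 14 acinar markers that passed the filter against 4.65 to 4.99 on the other 4 arrays. Smooth muscle and pericyte markers also varied between standard arrays, with means over 13 markers of 8.97, 7.88 and 9.99. The cafeteria means were 8.46 and 8.16, and 12 of the 13 differences were below 0, with a median of -0.71. Over all tested probe sets, 11141 of 21729 differences were below 0. In bulk tissue, fewer cells of a type and less RNA per cell cannot be told apart, and the part of these marker shifts in the results on other genes was not tested.

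No gene of the group passed an adjusted p of 0.05 in limma, and neither did any other probe set (0 of 21729, or 0%). A test without moderated variances also called 0. At an unadjusted p under 0.05 there were 16 of the 66 tested genes. Of these, 12 were higher in cafeteria samples, or 18.2%, where 6.05% of all tested probe sets were, and 4 were lower, or 6.06%, close to the 6.62% of all probe sets. Both cafeteria arrays lay above all standard arrays for 20 genes, or 30.3%, against 13.3% of all probe sets, and below them for 8 genes, or 12.1%, against 14.1%. In both directions together this made 28 genes, or 42.4%, against 27.4% of all probe sets. The gap depended on normalization. With cyclic loess 28 genes did not overlap, against 35.9% of all probe sets, and with quantile normalization 32 genes, against 37.8%. The median difference over the 66 genes was 0.07, while that of all probe sets rounded to 0.00. It was 0.039 without cafeteria replicate 1 and 0.041 without standard replicate 3. These shares describe the arrays and were not tested. The group counts 1 probe set per gene, that of highest mean, while the shares count every tested probe set, so they are unlike measures. With the filter at the 50th percentile, 13 of 62 genes were higher and 3 lower at an unadjusted p under 0.05. Of all probe sets 6.66% and 7.89% were, and 30.8% of all probe sets then did not overlap. With standard replicate 1, 2 or 3 left out, the genes at an unadjusted p under 0.05 numbered 11 each time. Without replicate 1 they were 7 higher and 4 lower, where 4.46% and 5.06% of all probe sets were. Without replicate 2 they were 8 higher and 3 lower, against 4.53% and 4.58%. Without replicate 3 they were 7 higher and 4 lower, against 4.73% and 5.98%. The adjusted p of each gene named below comes from the fit over all probe sets.

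**Figure D1:**
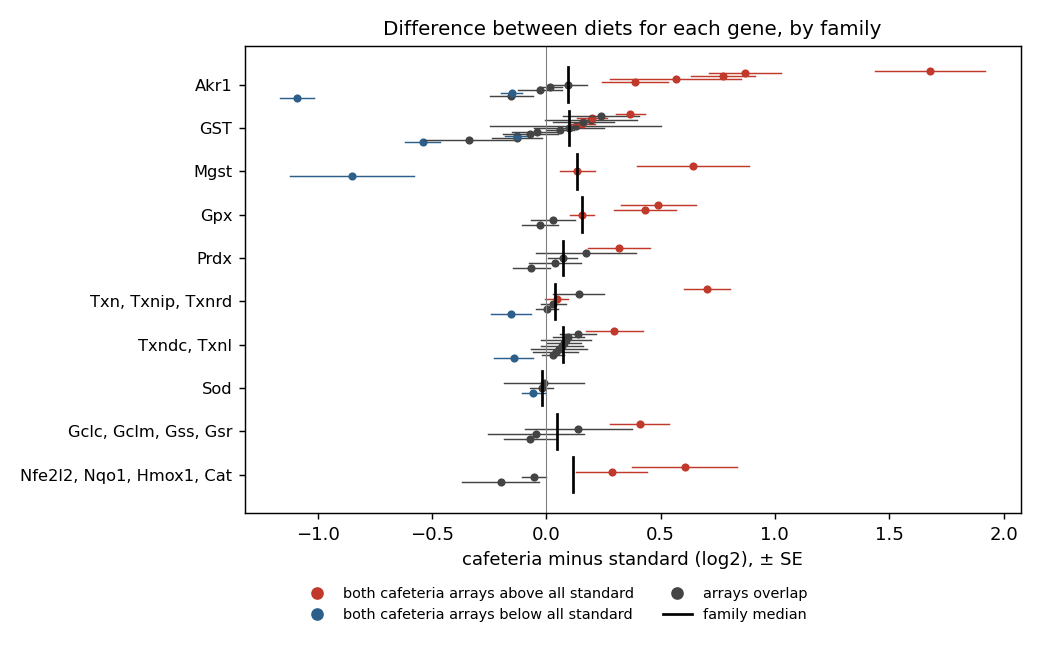
Difference between diets (cafeteria minus standard, log2) for the 66 tested genes, grouped by family on the vertical axis; each point is a gene, its line is ± 1 SE, and the black bar is the family median. Red and blue mark genes with both cafeteria arrays above or below all standard arrays, and grey marks overlap. Akr1 genes spread the widest, from -1.09 to 1.68, while the superoxide dismutases lie between -0.06 and -0.01.

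The aldo-keto reductases differed most among themselves. Of 11 tested Akr1 genes, 5 had both cafeteria arrays above all standard arrays and 2 had both below, where 13.3% and 14.1% of all probe sets did. The median of the family was 0.09, with members on both sides of 0. It was 0.037 without standard replicate 2 and 0.16 without cafeteria replicate 1. Of the 10 genes in the whole group whose difference exceeded 0.5 in size, 5 were Akr1 genes. That limit was set after the values were seen, and 6.31% of all probe sets exceeded it.

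Akr1c15, a rat member of the hydroxysteroid dehydrogenase branch, was lower in cafeteria samples. It read 6.74 and 6.61 in cafeteria samples and 7.71, 7.84 and 7.73 in standard samples. The groups lay far apart compared with their spread: the means were 6.67 ± 0.09 (SD, n = 2) and 7.76 ± 0.07 (SD, n = 3). The difference was -1.09 ± 0.07 (SE), with a 95% interval of -1.29 to -0.89, or 2.13-fold lower (adjusted p = 0.104). This gene was picked with its value known, so the difference, its interval and its p are a description. It stayed between -1.16 and -1.02 when any array was left out. The endothelial marker means given above were likewise lower on both cafeteria arrays, and their part in this difference was not tested.

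Akr1c3, the rat gene also named Akr1c18 and known for inactivating progesterone, differed the other way. It read 7.83 and 7.86 in cafeteria samples and 6.22, 6.52 and 5.75 in standard samples. The cafeteria arrays nearly coincided, and the standard arrays were spread over a wider range below them. The difference was 1.68 ± 0.24, or 3.20-fold, with a 95% interval of 1.04 to 2.32 (adjusted p = 0.224). This was the largest difference above 0 among the 66 genes. Akr1c13, named here by gene identifier because RefSeq lists Akr1c12 and Akr1c13 as synonyms of each other, came next in this branch, at 6.99 and 7.23 against 6.53, 6.31 and 6.17, a difference of 0.77 ± 0.14 (adjusted p = 0.253). Akr1c14, the hydroxysteroid dehydrogenase first known from rat liver, read 9.27 and 9.40 in cafeteria samples against 9.29, 9.13 and 9.30, and the diets overlapped. Its difference was 0.09, with an interval of -0.13 to 0.32, and its other probe sets gave 0.06 and 0.03. Akr1c19 overlapped too, at -0.03 ± 0.10. Akr1c1 was dim on all arrays, at 3.28 to 3.40. Genes of this branch are close relatives, and which of their transcripts each probe set detects was not tested.

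**Figure D2:**
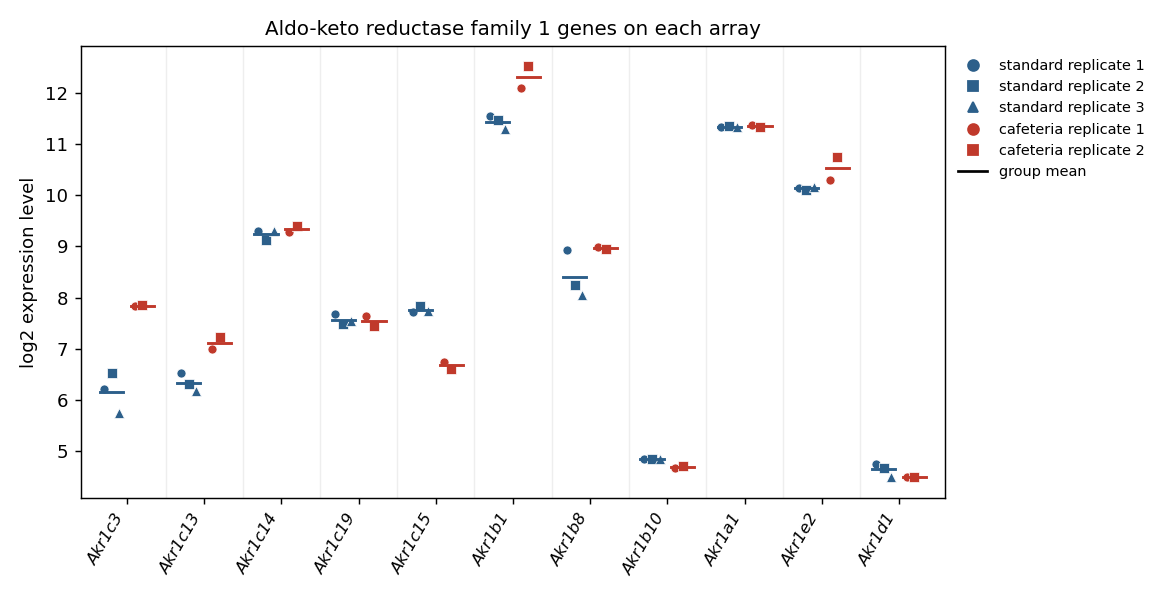
Log2 expression level of the 11 tested Akr1 genes on each array; circles, squares and triangles are replicates 1, 2 and 3, and horizontal bars are the means of the standard (blue) and cafeteria (red) samples. Akr1c3, Akr1c13 and Akr1b1 lie higher and Akr1c15 lower on both cafeteria arrays, while Akr1c14, Akr1c19 and Akr1a1 overlap.

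The genes Akr1c3, Akr1c14 and Akr1c15 follow each other on rat chromosome 17 in the RefSeq annotation of GRCr8, with no other annotated gene between them. Their differences were 1.68, 0.09 and -1.09 in that order. The stretches of 250 bases before their RefSeq start sites are shown because these neighbours differed in opposite directions, and that of Gclm, a standard Nfe2l2 target, is shown for comparison. Capitals mark matches to the core of the antioxidant response element, TGACNNNGC, on either strand.
Akr1c3, chr17:71020634-71020883, plus strand: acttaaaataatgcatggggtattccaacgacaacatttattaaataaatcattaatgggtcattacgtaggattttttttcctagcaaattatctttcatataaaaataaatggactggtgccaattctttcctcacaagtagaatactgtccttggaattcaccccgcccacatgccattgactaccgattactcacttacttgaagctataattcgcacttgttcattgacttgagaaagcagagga
Akr1c14, chr17:71083185-71083434, minus strand: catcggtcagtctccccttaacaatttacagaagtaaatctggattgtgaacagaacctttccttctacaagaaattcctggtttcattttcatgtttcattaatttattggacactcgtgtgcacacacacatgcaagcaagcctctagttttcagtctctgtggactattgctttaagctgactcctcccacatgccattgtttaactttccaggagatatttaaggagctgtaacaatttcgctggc
Akr1c15, chr17:71117958-71118207, minus strand: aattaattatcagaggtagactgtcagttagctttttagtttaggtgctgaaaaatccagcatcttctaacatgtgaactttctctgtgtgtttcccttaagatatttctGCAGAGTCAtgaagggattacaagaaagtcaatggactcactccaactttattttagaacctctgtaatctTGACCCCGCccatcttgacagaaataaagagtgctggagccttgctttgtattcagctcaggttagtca
Gclm, chr2:213031885-213032134, plus strand: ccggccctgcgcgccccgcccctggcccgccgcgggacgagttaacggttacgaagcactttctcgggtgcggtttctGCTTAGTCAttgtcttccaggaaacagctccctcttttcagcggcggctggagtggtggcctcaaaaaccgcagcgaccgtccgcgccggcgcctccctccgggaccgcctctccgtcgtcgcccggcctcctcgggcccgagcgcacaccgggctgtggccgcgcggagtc

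The sequence before Akr1c15 held 2 matches, beginning 140 and 69 bases before the start site, and that before Gclm held 1, beginning 172 bases before it. Those before Akr1c3 and Akr1c14 held none. The core was present in 12 of the 62 genes of the group that have such a sequence, and these 62 have 67 sequences. Of all 33469 sequences, 10.1% held it. The first count is per gene and the second per sequence, so they are unlike measures. The other 10 genes with a match were Gpx2, Gsta3, Gstm5, Gstm7, Gstp1, Gstz1, Sod2, Txndc11, Txndc5 and Txnrd1. Of the 12 genes, 10 were tested, and of these only Akr1c15 and Gclm were at an unadjusted p under 0.05, in opposite directions. Over all tested probe sets 12.7% were at that level, and over the 66 tested genes of the group 24.2%. Akr1c15 was picked with its value known. A match of these letters is a description and shows no binding.

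In the Akr1b branch, Akr1b1, the aldose reductase that turns glucose into sorbitol, read 12.09 and 12.51 in cafeteria samples and 11.54, 11.46 and 11.29 in standard samples. Both cafeteria arrays lay above the others, and the difference was 0.87 ± 0.16, or 1.83-fold (adjusted p = 0.253). Its dimmer probe set gave 0.18, also without overlap. Akr1b8, an aldose reductase-like gene, read 8.997 and 8.953 against 8.93, 8.25 and 8.04. Standard replicate 1, the array with acinar transcripts, lay almost level with the cafeteria arrays, so the difference of 0.57 ± 0.29 (adjusted p = 0.481) rested on the other standard arrays and was 0.83 without replicate 1. Akr1b10 was barely above the filter, and Akr1b7 was below it at 3.21 to 3.40. Akr1b10 read 4.68 and 4.71 against 4.84 on all 3 standard arrays, a difference of -0.15.

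Of the remaining reductases, Akr1e2, which reduces anhydrofructose, read 10.30 and 10.75 against 10.14, 10.11 and 10.15. The difference was 0.39 ± 0.14 (adjusted p = 0.392), and it was 0.17 without cafeteria replicate 2. Akr1a1, the general aldehyde reductase, was nearly level, at 11.38 and 11.32 against 11.33 to 11.34, with an interval of -0.11 to 0.15. Akr1d1, a steroid reductase of bile acid synthesis in the liver, was dim and overlapped, at 4.49 and 4.50 against 4.76, 4.68 and 4.50.

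Gsta1, an alpha class enzyme that conjugates glutathione to electrophiles, read 10.19 and 10.10 in cafeteria samples and 10.62, 10.64 and 10.79 in standard samples. It was lower on both cafeteria arrays by more than the spread within either diet, with -0.54 ± 0.08 on the log2 scale, or 1.45-fold lower (adjusted p = 0.224). The other alpha gene tested, Gsta4, which acts on lipid aldehydes, overlapped at 0.24 ± 0.17. Gsto1, an omega class enzyme, went the other way. It read 10.40 and 10.35 against 9.96, 10.08 and 9.98, a difference of 0.37 ± 0.06 (adjusted p = 0.246), and its relative Gsto2 overlapped at 0.06. Smaller differences without overlap were seen for Gstt1 of the theta class, 0.20 ± 0.07, and for the mitochondrial Gstk1, 0.16 ± 0.06. Gstp1, the pi class enzyme, differed by -0.13 ± 0.05, also without overlap.

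Among the 5 tested mu class genes, 0 separated the diets, where 27.4% of all probe sets did. Gstm7 read 7.25 and 6.71 against 7.17, 7.47 and 7.32, and its difference of -0.34 came mainly from cafeteria replicate 2. Gstm5 also differed mostly between the cafeteria arrays, at 9.86 and 8.80. Gstm1, Gstm2 and Gstm4 had differences of 0.16, 0.10 and 0.20, each with an interval spanning 0. Gstt2, Gstt3 and Gstz1 overlapped too, at -0.13, -0.04 and -0.07. Over all 15 tested cytosolic and mitochondrial transferases the median was 0.10.

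All 3 membrane-bound microsomal transferases separated the diets, 2 with higher and 1 with lower cafeteria arrays. Over all probe sets the shares were 13.3% and 14.1%. Mgst2, which also makes leukotriene C, read 7.77 and 8.05 in cafeteria samples and 8.41, 9.22 and 8.66 in standard samples, a difference of -0.85 ± 0.27 (adjusted p = 0.346). Mgst3 read 10.02 and 10.41 against 9.23, 9.91 and 9.57, a difference of 0.64 ± 0.24 (adjusted p = 0.401). Mgst1 was nearly level by comparison, 13.59 and 13.66 against 13.38, 13.55 and 13.53. The standard arrays of Mgst2 and Mgst3 were widely spread, and standard replicate 2 was the highest and replicate 1 the lowest of them for both genes.

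**Figure D3:**
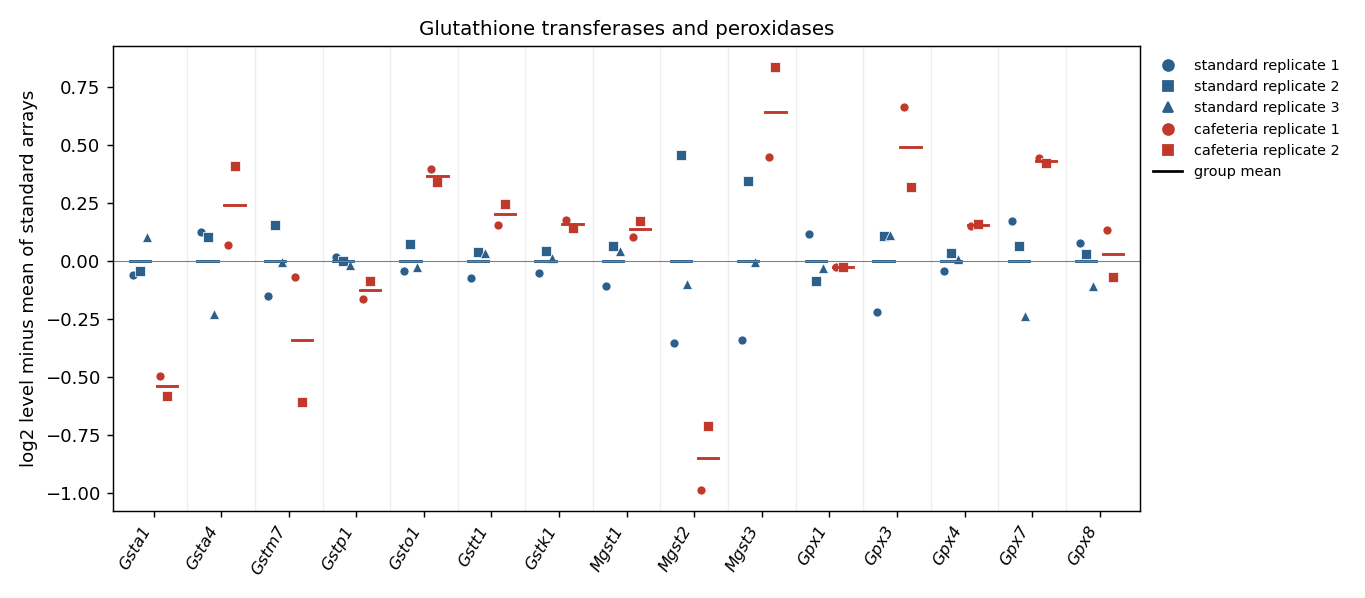
Level of 15 transferase and peroxidase genes on each array, as the log2 level minus the mean of the standard arrays; circles, squares and triangles are replicates 1, 2 and 3, and horizontal bars are group means. Gsta1 and Mgst2 lie lower on both cafeteria arrays, and Gsto1, Mgst3, Gpx3, Gpx4 and Gpx7 lie higher.

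Among 5 tested glutathione peroxidases, 3 had both cafeteria arrays above all standard arrays and 0 had both below, against 13.3% and 14.1% of all probe sets. Gpx3, the secreted peroxidase of plasma, read 12.43 and 12.09 against 11.55, 11.88 and 11.88, a difference of 0.49 ± 0.16 (adjusted p = 0.355) that was 0.32 without cafeteria replicate 1. Gpx7, a peroxidase of the endoplasmic reticulum, read 8.76 and 8.74 against 8.49, 8.39 and 8.08, a difference of 0.43 ± 0.14 (adjusted p = 0.345). Gpx4, which reduces lipid hydroperoxides in membranes and guards against ferroptosis, read 11.48 on both cafeteria arrays against 11.28, 11.36 and 11.33. Its difference was only 0.16 ± 0.05, and its dimmer probe set overlapped at 0.03. Gpx1, the abundant cytosolic form, and Gpx8 overlapped, with intervals of -0.24 to 0.18 and -0.23 to 0.29.

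In the thioredoxin system Txnrd3, a thioredoxin reductase with an added glutaredoxin domain, stood apart from its relatives. It read 7.37 and 7.64 in cafeteria samples and 6.74, 6.83 and 6.83 in standard samples. The difference was 0.70 ± 0.10, or 1.63-fold (adjusted p = 0.224). The cytosolic reductase Txnrd1 differed by 0.00, with an interval of -0.12 to 0.13, and the mitochondrial Txnrd2 by 0.03, from -0.11 to 0.17. Cytosolic thioredoxin, Txn1, differed by 0.05, and its mitochondrial form Txn2 by 0.14 with overlap. Txnip, which binds and inhibits thioredoxin and is induced by glucose, read 12.63 and 12.73 against 12.75, 12.80 and 12.97. Its cafeteria arrays lay just below the others, with a difference of -0.16 ± 0.09, or -0.091 without standard replicate 3.

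The 10 Txndc and Txnl genes, which carry thioredoxin folds and include protein disulfide isomerases and splicing factors, stayed within -0.14 and 0.30. Txnl1 had the largest difference, 10.67 and 10.92 against 10.64, 10.36 and 10.49, a difference of 0.30 that was 0.17 without cafeteria replicate 2. A second bright probe set gave 0.32. Txndc16 lay at -0.14 and Txndc15 at 0.14. Of the 5 peroxiredoxins, Prdx5 alone separated the diets, where 27.4% of all probe sets did. Prdx5 read 10.04 and 10.36 against 9.76, 10.03 and 9.85, a difference of 0.32 ± 0.14 (adjusted p = 0.443). It was 0.16 without cafeteria replicate 2 and 0.48 without replicate 1. Prdx2, Prdx3, Prdx4 and Prdx6 overlapped, between -0.07 and 0.17. No superoxide dismutase differed by more than 0.06 in size: cytosolic Sod1 at -0.06, mitochondrial Sod2 at -0.02 and secreted Sod3 at -0.01. The interval of Sod2 was -0.15 to 0.11, while that of Sod3 was wider, -0.48 to 0.46, because standard replicate 1 read 11.09 and the other standard arrays 11.56 and 11.55.

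Nfe2l2 itself was nearly level, at 9.50 and 9.44 in cafeteria samples and 9.57, 9.50 and 9.50 in standard samples, with an interval of -0.20 to 0.09. Its activity is set mainly at the protein level, which arrays do not measure. Nqo1, the quinone reductase that is a standard target of Nfe2l2, read 8.17 and 8.80 against 7.98, 8.01 and 7.66. Both cafeteria arrays were higher, but by unequal amounts: the difference of 0.61 ± 0.23 (adjusted p = 0.401) was 0.29 without cafeteria replicate 2 and 0.92 without replicate 1. Hmox1, the haem oxygenase, overlapped at -0.20, and Cat, which breaks down hydrogen peroxide in peroxisomes, differed by 0.29 ± 0.16 (adjusted p = 0.497), or by 0.15 without standard replicate 1.

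Glutathione synthesis starts with glutamate-cysteine ligase, made of the catalytic subunit Gclc and the modifier Gclm. Gclm read 8.02 and 8.17 against 7.53, 7.64 and 7.89, a difference of 0.41 ± 0.13 (adjusted p = 0.346) without overlap. Gclc read 8.12 and 7.40 against 7.64, 7.72 and 7.50, so that the cafeteria arrays held both the highest and the lowest value. On its second probe set the cafeteria arrays again held the highest and the lowest value, with a difference of 0.06. Glutathione synthetase, Gss, differed by -0.07 and glutathione reductase, Gsr, by -0.04, both with overlap. Gsr read 7.03 on cafeteria replicate 1 and 7.62 on replicate 2, so the cafeteria arrays again enclosed the standard ones.

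**Figure D4:**
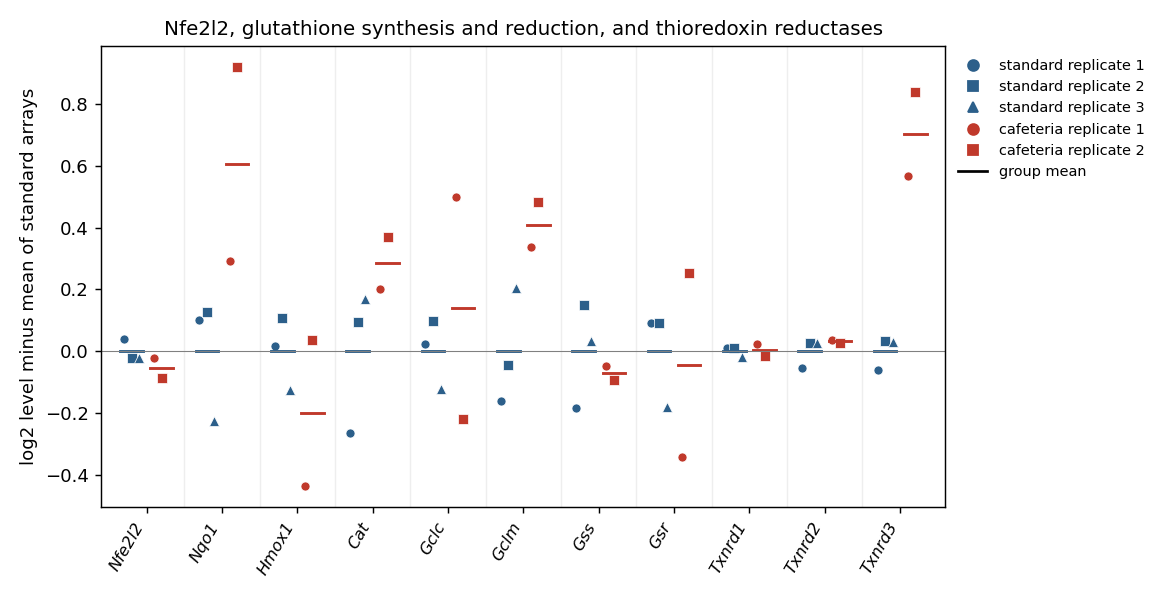
Level of Nfe2l2, Nqo1, Hmox1, Cat, the glutathione synthesis and reduction genes and the thioredoxin reductases on each array, as the log2 level minus the mean of the standard arrays; circles, squares and triangles are replicates 1, 2 and 3, and horizontal bars are group means. Nqo1, Gclm, Cat and Txnrd3 lie higher on both cafeteria arrays, and the cafeteria arrays of Gclc and Gsr fall on both sides of the standard ones.

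Genes that work beside the group were read from 7 lists, and none of their members passed the test over all probe sets. Of 12 Nfe2l2 regulators and partners, 1 was at an unadjusted p under 0.05, Ahr, the aryl hydrocarbon receptor that also drives detoxification genes. It read 5.43 and 5.17 against 6.16, 6.19 and 5.86, a difference of -0.77 ± 0.14 (adjusted p = 0.253). Keap1 overlapped at -0.05, Maff at 0.28, and Cul3, part of the ligase that degrades Nfe2l2, lay 0.12 higher. Of 23 other Nfe2l2 target and detoxification genes, 1 was higher at that level and 0 were lower, with a median of 0.09. That gene was Ephx1, the microsomal epoxide hydrolase, at 9.38 and 9.32 against 8.98, 8.88 and 8.82, a difference of 0.46 ± 0.07 (adjusted p = 0.229). Abcc4, an export pump, differed by -0.18, and Cbr4 by 0.11.

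Of 19 glutathione cycle and glutaredoxin genes, 5 were higher and 0 lower at an unadjusted p under 0.05. The median was 0.11. The examples with the smallest p were the aminopeptidases Lap3, by 0.44 ± 0.11, and Anpep, by 0.39 ± 0.13, and the glyoxalase Hagh, by 0.52 ± 0.17 (adjusted p = 0.281, 0.353 and 0.353). Of 15 genes of NADPH supply, 1 was higher and 2 were lower: Nadk2 by 0.19, the mitochondrial transhydrogenase Nnt by -0.50 and the malic enzyme Me2 by -0.34. Of 15 oxidant-producing enzymes, 1 was higher and 3 lower, with a median of -0.12. Maob, the amine oxidase that releases hydrogen peroxide, differed by -0.87 ± 0.13 (adjusted p = 0.229), the phagocyte oxidase subunit Ncf4 by -0.45 and Nos2, which makes nitric oxide, by 0.34. Markers of immune cells had lower means in cafeteria samples too: 12 of 13 macrophage, 10 of 10 T cell and 9 of 9 mast cell markers. Over all tested probe sets, 11141 of 21729 differences were below 0. Of these markers, 1 macrophage, 0 T cell and 1 mast cell marker were lower at an unadjusted p under 0.05, and 1 macrophage marker was higher. Their list means overlapped between the diets, at 9.47 to 9.76 against 9.63 to 10.02 for macrophages, 5.08 to 5.62 against 5.62 to 6.09 for T cells and 7.52 to 8.30 against 8.24 to 8.85 for mast cells. Their part in the values of the oxidant-producing enzymes was not tested.

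Of 16 selenoprotein and methionine sulfoxide reductase genes, 2 were higher and 1 lower. Msrb2 differed by 0.38, Selenok by 0.15 and Sephs2, which makes the selenium donor, by -0.30. Of 13 aldehyde dehydrogenases, 1 was higher, Aldh7a1 by 0.29, while Aldh3a1 at -0.65 and Aldh9a1 at 0.47 did not reach that level. Shares of 6.05% and 6.62% over all probe sets stand behind each of these counts.

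An exact permutation test of 1 gene at a time, over the 10 divisions of the arrays into 2 and 3, cannot give a two-sided p below 0.1. It gave 0.1 for Akr1c15, Akr1c3, Akr1b1, Akr1b10, Akr1c13, Akr1e2, Gsta1, Gsto1, Gstk1, Gstt1, Gstp1, Txnrd3, Txndc16, Gpx3, Gpx4, Gpx7, Nqo1 and Sod1. Among the genes at 0.2 were Gclm, Mgst2, Mgst3, Prdx5 and Cat. Small differences reached 0.1 too, such as -0.06 for Sod1. The share of all probe sets at 0.1 was not computed. Among the 66 tested genes, 18 had at least 2 arrays at an identical value, among them Nfe2l2, Akr1b10 and Txnrd2, so that their spread can be understated.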

How the data were processed

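The members and gene lists were chosen with earlier results of these data known. The authors deposited log2 expression levels for every probe set on each array. RMA and affy are named for them in the submitters' processing notes. RMA makes array distributions alike, which can hide a shift of most transcripts. The sources used here name no further steps and no batches.

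Symbols came from GEO's platform annotation. All 75 genes were found in RefSeq (GRCr8) by gene identifier. Probe sets with several symbols were left out. Each gene was represented by its probe set with the highest mean, of 87 in all. The 57 control probe sets were dropped, and 21729 probe sets with a mean above the 30th percentile were fitted across all with limma 3.58.1 in R 4.3.3 (lmFit, eBayes, two-sided, Benjamini-Hochberg, threshold 0.05), with 3 residual degrees of freedom. The p-values and intervals rest on the spread between these samples, with each variance drawn toward those of all tested probe sets (1.50 prior degrees of freedom). The fit was also run on simulated independent normal values with its own variances, which does not test how it handles tied values or correlated genes. Family medians are descriptions. Arrays matched exactly at 11.7% to 14.7% of probe sets between any pair, and none were merged.

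The rule named Akr1c15, any member past the adjusted threshold, all Akr1 genes, the glutathione synthesis genes, Cat, Nqo1, Hmox1 and Nfe2l2, genes nearest the filter, the 3 genes of smallest p and the 1 of highest mean in each family, and the 3 of smallest p in each list; further genes were named after their values were seen. Alternatives were other filters, normalizations, variance models, array weights, probe set choices, the replicate number as a block, and each array left out in turn.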

Additional observations from a re-analysis of the deposited data

How the results depend on the processing

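Under each alternative tried, limma's adjusted p stayed above 0.05 for every gene of the group and every other probe set tested. In 14 settings that kept 1 probe set per gene chosen in the same way, 7 genes stayed at an unadjusted p under 0.05 each time: Akr1b1, Akr1c13, Akr1c15, Akr1c3, Gsta1, Gsto1 and Txnrd3. The share of all probe sets that stayed at that level in all 14 settings was not computed. All settings draw on the same 5 arrays, and Akr1c15 was picked with its value known. In the fits without a cafeteria array, the lone cafeteria array was assumed to vary like the standard ones, which alone gave the spread. Over every alternative the count of genes at that level ran from 11 to 18 (16 as reported).

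With a replicate block 13 genes were at that level, and 2206 probe sets against 2754. Deviations of same-numbered arrays correlated at 0.079 and -0.037, and those of unlike-numbered arrays at -0.115 to 0.115. The deviations of the 2 cafeteria arrays mirror each other, so these values cannot decide whether the numbers mark pairs. The main fit did not read them as pairs. The block put the median of the Txndc and Txnl genes at 0.022 and the difference of Sod3 at 0.064. Standard replicate 3 has no cafeteria array of its number, so the block takes it out of the comparison. These values are therefore the same as those without that array. The Akr1 median was 0.39 with the filter at the 50th percentile. The Gpx median was 0.094 with the mean of a gene's probe sets and 0.031 with no filter. Cyclic loess gave Akr1a1 -0.0038, and quantile normalization gave Akr1a1 -0.042, Akr1c19 0.024 and Gsr 0.0046. The causes of the changes outside the block were not tested.

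With each array left out in turn, the count of genes without overlap ran from 29 to 47 (28 as reported). Leaving out cafeteria replicate 1 gave 46 and cafeteria replicate 2 gave 47, and the share of all probe sets without overlap was then 58.5% and 55.2%. Without standard replicate 1, 2 or 3 the counts were 36, 31 and 29 of 66 genes. The share of all probe sets without overlap was then 35.4%, 35.0% and 38.1%. Probe sets at an unadjusted p under 0.05 ran from 1981 to 4171, the highest count from cafeteria replicate 2 alone against 3 standard arrays, a smaller design than the fits of 2 against 3. Family medians ran from 0.037 to 0.16 for Akr1, from 0.028 to 0.16 for the Gst genes, from -0.049 to 0.13 for Prdx, from 0.022 to 0.12 for Txndc and Txnl, and from 0.013 to 0.14 for glutathione synthesis and reduction. Differences that changed sign ran from -0.0093 to 0.045 for Akr1a1, -0.13 to 0.076 for Akr1c19, -0.22 to 0.50 for Gclc, -0.070 to 0.031 for Gpx1, -0.34 to 0.25 for Gsr, -0.16 to 0.0043 for Gss, -0.11 to 0.31 for Gstm2, -0.00049 to 0.39 for Gstm4, -0.14 to 0.064 for Gstt3, -0.25 to 0.11 for Gstz1, -0.44 to 0.038 for Hmox1 and -0.17 to 0.071 for Sod3.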
